A study of Homo sapiens with 2 samples.

Results

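Peaks of open chromatin at the promoters of isolated long non-coding RNA (lncRNA) genes were examined in SUM159 cells, where both ATAC-seq libraries had a peak. SUM159 is a human triple-negative breast cancer line of mesenchymal character. Both libraries came from cells transduced with the pLV-KRAB vector, which carries dCas9 fused to the KRAB repressor domain. The No gRNA library was the empty vector control without a targeting guide, and the All gRNA library carried 4 guides directed to the ZEB1 promoter. ZEB1 encodes a repressor of epithelial genes. Each group held 1 library, so differences between the libraries have no replicate check and no test between conditions was possible. A peak was counted here if it was called in No gRNA on chromosomes 1 to 22 and X, overlapped an All gRNA peak by at least 1 bp, and had its summit within 1000 bp of a GENCODE lncRNA transcript start and more than 5 kb from every protein-coding transcript start. By this rule 2051 peaks were chosen out of 51122 shared peaks and 74757 No gRNA peaks in all. They lay at the starts of 1973 lncRNA genes. Since they were selected on the peak calls of both libraries, their presence in both is no finding, and peak heights, widths and sequences are described below.

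The peaks were first read at marker genes of the line. VIM, CDH2 and FN1, which mesenchymal cells express, each had a peak within 1000 bp of the start in both libraries. CDH1, EPCAM, CLDN3, CLDN4, CLDN7, ESR1 and PGR, epithelial and hormone receptor genes, had none in either library. ERBB2, a growth factor receptor gene, had 1 peak in No gRNA and 2 in All gRNA. The read windows over the summit were 34 in No gRNA against 8 for All gRNA. These counts are not scaled for depth and are no like comparison.

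lncRNAs are transcripts without a recognised coding frame, and many are made by RNA polymerase II from promoters of their own. Some act in the nucleus or cytoplasm as RNA, others are spliced and then processed to release a microRNA or a small nucleolar RNA (snoRNA), and for many no function is known. In ATAC-seq the Tn5 transposase cuts accessible DNA, so a peak at a start marks an open promoter, or an enhancer from which the annotated RNA starts, and does not measure the RNA.

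The sequences at the summits showed the range of promoters among these genes. Each stretch below is 201 bases of hg38 centred on the No gRNA summit and read on the strand of the nearest lncRNA start. Capitals mark every match on either strand of TGANTCA (the site of AP-1 factors), CAGGTG (an E-box that ZEB1 binds) and GGGCGG (the GC box of Sp factors). DANCR, MIR17HG and MALAT1 are shown as promoters of well-known RNAs, LINC01133, FENDRR, LINC01503, ENSG00000257746 and LINC01886 for their differences between the libraries, and FAM86JP because its sequence occurs elsewhere in the genome.
DANCR, a snoRNA host (chr4:52712307-52712507, plus strand): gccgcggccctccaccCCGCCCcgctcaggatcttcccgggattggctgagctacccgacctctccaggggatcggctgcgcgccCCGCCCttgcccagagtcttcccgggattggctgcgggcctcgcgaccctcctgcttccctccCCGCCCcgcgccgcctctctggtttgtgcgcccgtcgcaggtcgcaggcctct
MIR17HG, a microRNA host (chr13:91348769-91348969, plus strand): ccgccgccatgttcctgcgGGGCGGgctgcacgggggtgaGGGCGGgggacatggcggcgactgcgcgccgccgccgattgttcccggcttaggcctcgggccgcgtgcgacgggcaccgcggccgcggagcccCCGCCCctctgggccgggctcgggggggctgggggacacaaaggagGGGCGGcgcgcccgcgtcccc
MALAT1, a nuclear lncRNA (chr11:65497692-65497892, plus strand): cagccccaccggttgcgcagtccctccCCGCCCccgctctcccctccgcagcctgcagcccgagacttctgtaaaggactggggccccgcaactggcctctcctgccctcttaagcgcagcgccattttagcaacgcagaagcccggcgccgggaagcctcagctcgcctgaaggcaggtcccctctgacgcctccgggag
LINC01133, lower in All gRNA (chr1:159960815-159961015, plus strand): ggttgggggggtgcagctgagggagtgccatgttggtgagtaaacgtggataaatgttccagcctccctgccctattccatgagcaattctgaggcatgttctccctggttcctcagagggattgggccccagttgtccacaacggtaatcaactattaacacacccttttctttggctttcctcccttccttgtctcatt
FENDRR, lower in All gRNA (chr16:86491394-86491594, minus strand): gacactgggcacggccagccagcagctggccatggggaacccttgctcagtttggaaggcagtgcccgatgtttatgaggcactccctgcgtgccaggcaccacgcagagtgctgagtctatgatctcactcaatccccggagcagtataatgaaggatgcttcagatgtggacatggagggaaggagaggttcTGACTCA
LINC01503, a ratio of 1.95 (chr9:129334389-129334589, plus strand): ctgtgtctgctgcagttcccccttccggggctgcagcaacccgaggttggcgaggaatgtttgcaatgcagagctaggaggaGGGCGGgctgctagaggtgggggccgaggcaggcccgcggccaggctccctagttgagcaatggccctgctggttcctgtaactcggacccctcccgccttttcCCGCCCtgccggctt
ENSG00000257746, the largest ratio in favour of All gRNA (chr12:93090270-93090470, plus strand): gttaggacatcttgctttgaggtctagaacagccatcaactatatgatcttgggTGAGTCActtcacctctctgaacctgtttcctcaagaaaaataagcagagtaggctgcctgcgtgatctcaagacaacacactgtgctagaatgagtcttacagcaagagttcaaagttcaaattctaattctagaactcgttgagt
LINC01886, higher in All gRNA (chr2:107542415-107542615, plus strand): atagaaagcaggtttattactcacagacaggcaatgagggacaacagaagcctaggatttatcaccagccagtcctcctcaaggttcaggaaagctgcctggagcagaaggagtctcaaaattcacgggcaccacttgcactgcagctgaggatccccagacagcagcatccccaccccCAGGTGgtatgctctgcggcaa
FAM86JP, a repeated sequence (chr3:125916177-125916377, minus strand): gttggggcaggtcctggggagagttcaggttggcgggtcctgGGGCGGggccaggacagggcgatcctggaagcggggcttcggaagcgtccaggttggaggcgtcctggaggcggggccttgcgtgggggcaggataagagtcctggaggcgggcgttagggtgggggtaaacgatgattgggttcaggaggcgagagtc
DANCR held 3 GC boxes and MIR17HG held 4, in windows of 73.6% and 81.1% GC. LINC01133 held none of the 3 motifs in a window of 51.2% GC. The FENDRR and ENSG00000257746 windows each held 1 AP-1 site, and the LINC01886 window held 1 CAGGTG. The 32-mers of the FAM86JP window occurred 3 times in the genome at the median.

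Of 13996 lncRNA genes with a start more than 5 kb from any protein-coding start, 1967 (14.1%, 95% Wilson interval 13.5 to 14.6) had a shared peak. Among protein-coding genes 12375 of 19626 (63.1%) had a shared peak within 1000 bp of a start. Genes that host small RNAs were open more often than isolated lncRNA genes as a whole. A shared peak was found at 78 of 189 microRNA hosts (41.3%, 34.5 to 48.4) and at 28 of 66 snoRNA hosts (42.4%, 31.2 to 54.4), and the lower bounds lay above 14.6%. The hosts were not matched to other genes for their number of transcripts. Genes that RefSeq calls pseudogenes were open in 84 of 224 cases (37.5%, 31.4 to 44). Genes with a symbol were open in 20.7% of 4089 cases, and those known by an identifier alone in 11.3% of 9907. The share rose with the number of annotated transcripts, from 9.37% with 1 transcript to 36.8% with 10 or more, and a gene with more starts has more places where a peak can fall.

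The rule held summits within 1000 bp of a lncRNA start and over 5 kb from protein-coding starts, so the distances below describe the selection. The median distance from summit to nearest start was 146 bp, 817 of 2051 summits (39.8%) lay within 100 bp, and 1269 peaks (61.9%) spanned the start itself. The summit lay upstream of the start in 1180 (57.5%) and downstream in 860. The median distance to the nearest protein-coding start was 48303 bp, and 118 lay over 500 kb away. In 1409 (68.7%) the lncRNA overlapped no protein-coding gene, and in 530 (25.8%) it overlapped a protein-coding gene on the opposite strand. At 191 peaks (9.31%) lncRNAs started on both strands. These were wider and higher than the others, with median widths of 586 bp and 511 bp against 433 bp and 396 bp, and median summit pileups of 55 and 36 against 29 and 20.

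Widths and heights of lncRNA promoters lay between those of protein-coding promoters and those of distal peaks, which lie more than 5 kb from any protein-coding or lncRNA start. The median width was 446 bp (430 to 460) in No gRNA and 409 bp (394 to 423) in All gRNA, against 585 bp and 522 bp at 13611 protein-coding promoters and 356 bp and 336 bp at 29969 distal peaks. Height was read as the summit pileup, the number of read windows that cover the summit, which was solved from the deposited fold enrichment and p-value, and for which a whole number matched the deposited −log10 p-value to within a relative error of 1e-05 in 100% of peaks. Its median was 30 (28 to 32) for No gRNA against 21 (20 to 22) for All gRNA. Quartiles were 17 and 57 in No gRNA and 12 and 37 in All gRNA. At protein-coding promoters the medians were 54 and 35, and at distal peaks 20 and 15. The fold enrichment over local background had medians of 10.9 and 9.38 at lncRNA promoters, 13.3 and 11.6 at protein-coding promoters and 9.65 and 8.42 at distal peaks. The peak lists were of like size, with 74757 peaks in No gRNA and 75217 in All gRNA. The All gRNA library was shallower, at 0.743 times the depth of No gRNA, and its pileups are lower before any scaling. The part of depth in the widths was not tested. Of the 2051 peaks, 1265 (61.7%) were narrower in All gRNA and 774 were wider. The median difference in width was -27 bp, against -23 bp over all shared peaks. Peaks over 1000 bp wide numbered 69 in No gRNA and 43 in All gRNA.

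**Figure D1:**
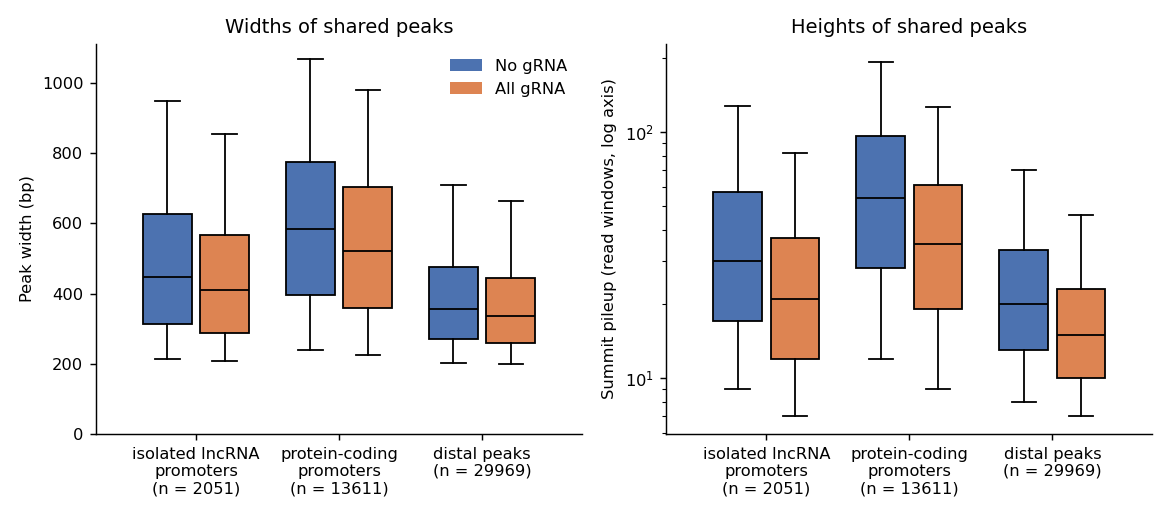
Width in bp (left) and summit pileup in read windows on a log axis (right) of shared peaks of 3 classes in No gRNA (blue) and All gRNA (orange). Boxes span the quartiles with the median as a line, and whiskers reach from the 5th to the 95th percentile. The lncRNA promoters, with median widths of 446 bp and 409 bp, lie between the other classes.

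The lncRNA promoters differed among themselves in sequence. Many vertebrate promoters lie in CpG-dense DNA, and enhancers mostly do not. A window of 100 bp either side of the summit was called CpG-dense if its GC content was at least 0.5 and its observed over expected CpG at least 0.6. By this measure 726 lncRNA promoters (35.4%, 33.4 to 37.5) were CpG-dense, against 80.1% of protein-coding promoters and 4.49% of distal peaks. The CpG-dense lncRNA promoters were wider, at 564 bp and 496 bp against 399 bp and 366 bp in the 1325 others, and higher, at pileups of 43 and 28 against 25 and 18. The GC box GGGCGG was found in 28.5% of lncRNA promoters, 61.1% of protein-coding promoters and 6.02% of distal peaks. CCGGAA, the core bound by ETS factors, was found in 10.2%, 19.4% and 3.06%.

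The AP-1 site TGANTCA went the other way. It was present in 491 lncRNA promoters (23.9%, 22.1 to 25.8), 6.24% of protein-coding promoters and 42.2% of distal peaks. The shares differed with CpG content. Within CpG-dense windows the shares were 5.23%, 2.3% and 9.81%. Within the other windows they were 34.2%, 22.1% and 43.7%, so lncRNA promoters stayed between the other classes on both sides of the divide. TATAAA, the core of the TATA box, was found in 5.95% of lncRNA promoters, 2.55% of protein-coding promoters and 12.2% of distal peaks. The E-boxes differed less over all windows, with CAGGTG in 13.3% (11.9 to 14.8), 11.8% and 11.1%, and CAGCTG in 13.2%, 11.8% and 12.4%. Within CpG-dense windows CAGGTG was found in 16.7% (14.1 to 19.6), 11.3% and 17.4%, and within the others in 11.5%, 13.9% and 10.8%. The motifs are matched by letters on both strands, and a match is no proof of binding.

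Repeated sequence was more frequent at lncRNA promoters than in the other classes. In 317 of them (15.5%, 14 to 17.1) at least 50% of the 32-mers around the summit occurred more than once in hg38, against 1.95% of protein-coding promoters and 5.34% of distal peaks. Among CpG-dense windows the shares were 27%, 1.78% and 23.9%. Reads from such copies can be placed at more than one site, so the heights of these peaks may mix several loci. Most copies were few. In 262 promoters the median copy number was over 1 and up to 10 and in 44 over 10 and up to 1000, and it was higher in the rest.

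Among 9 nuclear and cytoplasmic regulators, 8 were annotated with an isolated start and 6 had a shared peak. At MALAT1, an abundant RNA of nuclear speckles, the summit pileup was 48 in No gRNA against 32 in All gRNA, in peaks of 562 bp and 531 bp (chr11:65497429-65497990 in No gRNA). KCNQ1OT1, the imprinted antisense RNA of the KCNQ1 locus, had pileups of 62 and 55. NORAD, which binds PUMILIO proteins, had 20 and 15. H19, an imprinted RNA, and FIRRE, an RNA of the X chromosome, were weak, at 8 and 6 for H19 and 10 and 7 for FIRRE. LINC-PINT had 5 peaks near its starts in No gRNA and 3 in All gRNA, of which 1 shared peak met the rule. The nearest start to that peak, at 66 bp, was that of LINC00513. It had 79 and 39, a depth-scaled ratio of 0.664 (95% counting interval 0.441 to 0.987, for counting error alone). Under scaling by the median ratio of all shared peaks that interval included 1 (0.475 to 1.06). The intervals of the other 5 ratios included 1. Over all 48041 one-to-one shared peaks the interval lay below 1 in 8.85% and above 1 in 3.42%. NEAT1, the scaffold of paraspeckles, had a peak in No gRNA and none in All gRNA. Of all 2560 No gRNA peaks at isolated lncRNA starts, 509 had no All gRNA partner. MEG3, an imprinted RNA, had no peak in either library.

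Of 23 microRNA hosts with an isolated start, 16 had a shared peak, 40 peaks in all. MIRLET7A1HG, the host of let-7 microRNAs, was the highest of them, with pileups of 295 and 199. Its No gRNA peak of 1168 bp overlapped 2 All gRNA peaks, of which the one compared measured 547 bp, so the widths are not a like comparison. MIR17HG, the host of the miR-17-92 cluster, had a pair of peaks, with pileups of 85 and 57 at one and 87 and 47 at the other. The latter overlapped 2 All gRNA peaks, and 47 is the pileup of the higher one. DLEU2, the host of miR-15a and miR-16-1, had 4 peaks with pileups from 32 to 106 in No gRNA and from 21 to 65 in All gRNA. MIR100HG and MIR99AHG each had 6, spread over 266 kb and 548 kb. The MIR100HG peaks had pileups from 9 to 51 in No gRNA and from 9 to 41 in All gRNA. MIR155HG, the host of miR-155 in immune and cancer cells, was weak at 21 and 16. The largest ratio among the 35 one-to-one peaks was 2.31 (0.837 to 6.92) at a MIR99AHG peak with 7 and 12 read windows, and each of the 35 counting intervals included 1. The list holds well-known hosts only. Of 97 one-to-one peaks at any lncRNA that spans a microRNA gene, 1 was higher and 4 were lower beyond 2-fold with an interval that excluded 1, where 2.44% and 3.27% of all shared peaks were. MIR205HG, the host of the epithelial miR-205, had no peak in either library, and neither had MIR31HG or MIR23AHG.

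Most snoRNA host peaks were CpG-dense. Of 23 with an isolated start 17 had a shared peak, 18 peaks in all, and 16 of the 18 were CpG-dense. These genes carry snoRNAs in their introns and belong to the promoters active in most cells. Their median pileups were 60 and 41.5, for No gRNA and All gRNA in that order, against 30 and 21 over all lncRNA promoters, and their median widths of 459.5 bp and 438 bp were close to the 446 bp and 409 bp of all. DANCR was the highest at 249 and 216, with its summit 2 bp from the start, in peaks of 942 bp and 490 bp. SNHG5 had 147 and 79, a ratio of 0.723 (0.543 to 0.957), and SNHG8 had 135 and 125, a ratio of 1.25 (0.969 to 1.6). The SNHG5 interval was the one of 18 that excluded 1. Scaled by the median ratio instead, it included 1 (0.585 to 1.03), and the intervals of DANCR (1.04 to 1.52) and SNHG8 (1.04 to 1.73) then excluded it. Under that scaling the interval lay below 1 in 5.47% of all shared peaks and above 1 in 4.9%. GAS5 and 8 SNHG genes had no start more than 5 kb from a protein-coding start and fell outside the rule.

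The list of lncRNAs tied to cancer or epithelial-mesenchymal transition was chosen with earlier results of these data known, as were the other lists. It had 28 genes with an isolated start, of which 19 had 45 shared peaks. Their median log2 ratio was -0.32 (-0.46 to -0.10) over 43 one-to-one peaks, and 31 of the 43 (72.1%) were lower in All gRNA, against -0.144 and 60.5% over all lncRNA promoters and 58.1% over all shared peaks. The list held higher peaks, with a median No gRNA pileup of 57 against 30, and the ratio moved with height. At the 32 of its peaks whose pileups in both libraries summed to 50 or more the median was -0.23 with 71.9% lower, close to -0.22 and 70.4% over 964 lncRNA promoters of that height, a limit chosen after the values were seen. The counting interval lay below 1 in 11 of the 43 peaks (25.6%) and above 1 in 1, against 8.85% and 3.42% of all shared peaks. At summed pileups of 50 or more it lay below 1 in 10 of 32 (31.2%), against 17.5% of lncRNA promoters and 16.8% of all shared peaks. LINC00511 and PVT1 alone gave 17 of the 43 peaks and 8 of the 11, and peaks of one gene are not independent. Under scaling by the median ratio the interval lay below 1 in 7 of the 43 (16.3%), of which 4 were at LINC00511 and PVT1. With that scaling it lay below 1 in 6.73% of lncRNA promoters and 5.47% of all shared peaks. At summed pileups of 50 or more it did so in 6 of 32 (18.8%), against 11% and 10.4%. LINC00511, on chromosome 17, had 10 shared peaks over 275 kb, the most of any gene. The 5 peaks at the lowest coordinates had pileups of 57, 74, 77, 72 and 62 in No gRNA against 24, 27, 37, 41 and 26 for All gRNA. The other 5 had 25, 27, 48, 26 and 49 against 26, 23, 26, 27 and 38. The division does not follow a gap in the gene. Neighbouring peaks at chr17:72465591-72466038 and chr17:72466286-72466558, 1 from each group, had ratios of 0.564 (0.343 to 0.906) and 1.4 (0.777 to 2.53). At chr17:72407482-72407982 the ratio was 0.491 (0.304 to 0.772), beyond 2-fold, and under scaling by the median ratio it was 0.529 (0.327 to 0.832), short of it.

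LINC01133 and FENDRR had lower ratios still. At LINC01133 the No gRNA pileup was 30 and the All gRNA pileup 7, a ratio of 0.314 (0.116 to 0.73), and its peak narrowed from 487 bp to 217 bp. FENDRR, a lncRNA next to FOXF1, had 48 and 13, a ratio of 0.364 (0.181 to 0.683). LINC01503 had 29 and 42, a ratio of 1.95 (1.19 to 3.24), short of 2-fold, and under scaling by the median ratio it was 2.1 (1.28 to 3.5), beyond it. One CASC15 peak had 80 and 36, a ratio of 0.606 (0.397 to 0.908). CYTOR, LUCAT1, LINC00460, LINC00707, LINC01615 and LINC00958 each had intervals that included 1. In the CYTOR windows 88.2% and 75.9% of the 32-mers were repeated, so its heights may mix loci. HOTAIR and SPRY4-AS1 had peaks near their starts but none that met the rule. UCA1, BCAR4, DSCAM-AS1, LINC00973, LINC01638, LINC01705 and LINC-ROR had no peak in either library. ZEB1-AS1, which starts beside the ZEB1 promoter that the guides target, had no isolated start and fell outside the rule, with 2 peaks near its starts in No gRNA and none in All gRNA.

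**Figure D2:**
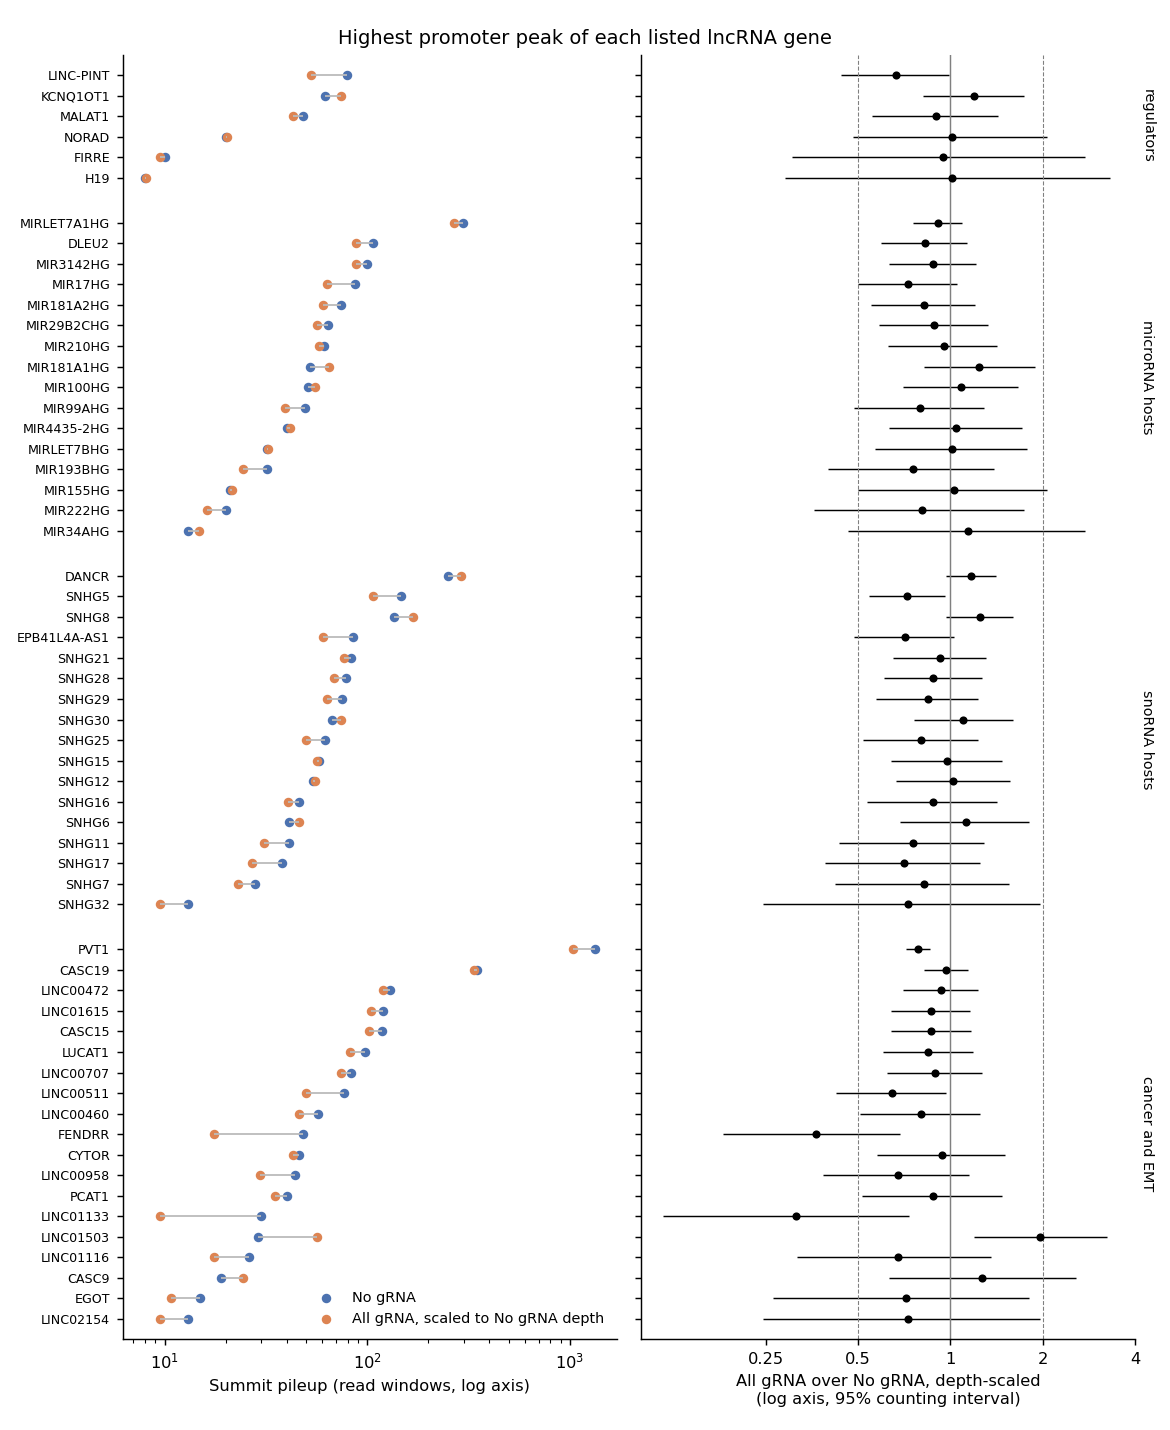
Left, summit pileup (read windows, log axis) of the highest promoter peak of each listed lncRNA gene (y axis) in No gRNA (blue) and in All gRNA divided by 0.743 (orange). Right, depth-scaled ratio of All gRNA to No gRNA (log axis) with its 95% counting interval, with lines at 1 and at 2-fold either way. LINC01133 (0.314) and FENDRR (0.364) lie below the lower dashed line.

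Of the 10 highest peaks 3 fell at PVT1 and 5 at sequence in which at least 50% of the 32-mers were repeated. PVT1, a lncRNA gene beside MYC on chromosome 8, had 7 shared peaks. At its main start (chr8:127793989-127795508) the pileup was 484 in No gRNA against 295, and the peak was 1520 bp wide. A pair of internal starts were higher, at 1322 and 768 and at 1279 and 923. The local background there was high as well. At the first of the pair it was 227 read windows in No gRNA, against a median of 1.84 over all lncRNA promoters, and the fold enrichment was 5.81 against a median of 10.9. At the second the background was 59.2 and the fold enrichment 21.3, above that median. At the main start they were 32.6 and 14.4. The ratio was 0.82 (0.707 to 0.95) at the main start, and 0.782 (0.714 to 0.855) and 0.971 (0.891 to 1.06) at the internal starts. Under scaling by the median ratio the main start had 0.884 (0.762 to 1.02). The next highest were ENSG00000248787 with FAM86JP at 523 and 288, LINC02021 at 520 and 403, ENSG00000291149 at 480 and 319, FAM86B3P at 444 and 342, ENSG00000286895 at 399 and 289, FAM86EP at 381 and 287, and ENSG00000291186 at 369 and 284. In the FAM86EP and ENSG00000291186 windows 26.5% and 18.2% of the 32-mers were repeated. FAM86JP, FAM86B3P and FAM86EP are named as pseudogenes of one family. Its 6 peaks had pileups from 193 to 523 in No gRNA, and from 26.5% to 89.4% of their 32-mers were repeated.

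Of the 10 widest peaks only the main start of PVT1, at 1520 bp and 1300 bp, was also among the 10 highest. Widths are given for No gRNA first, and 5 of the 10 overlapped 2 All gRNA peaks each, so that for those the second width is that of one piece. Among the peaks with a lone partner ENSG00000261135 measured 1560 bp and 1304 bp, ENSG00000259135 1453 bp and 1071 bp, ENSG00000275180 1451 bp and 1414 bp, and ENSG00000289452 1340 bp and 1074 bp. The split peaks were those of ENSG00000285517, the widest of all at 1744 bp, with a piece of 1048 bp, ENSG00000291054 at 1447 bp with 681 bp, CASC19 at 1402 bp with 1031 bp, ENSG00000254545 at 1388 bp with 730 bp, and ENSG00000286373 at 1365 bp with 1009 bp.

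Heights in the 2 libraries were compared at the 1873 lncRNA promoters with exactly 1 partner each way, after division by the depth ratio. The log2 ratio, All gRNA over No gRNA, had a median of -0.144 (-0.165 to -0.112), and 60.5% were lower in All gRNA. The interval covers the spread among peaks of 1 library per group and not variation between cultures. Over all 48041 one-to-one shared peaks the median was -0.108, at protein-coding promoters -0.207 and at distal peaks -0.035. Under scaling by the median ratio the median at lncRNA promoters was -0.036, and 52.4% were lower, against 50% of all shared peaks. The ratio moved with height in every class. A weak peak was counted only if it was called in both libraries, which limits the ratios it can show. The part of this selection in the trend was not tested. Where the pileups of both libraries summed to under 25, the median log2 ratio was 0.17 at lncRNA promoters and 0.11 over all shared peaks. At sums of 50 to 99 it was -0.20 and -0.18, and at sums of 200 or more -0.21 and -0.23. It was -0.21 at CpG-dense lncRNA promoters and -0.09 at the others, against -0.21 and -0.05 over all shared peaks.

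A promoter was called different if its ratio passed 2-fold and its counting interval excluded 1. By this rule 40 lncRNA promoters were higher in All gRNA (2.14%, 1.57 to 2.89), where 2.44% of all one-to-one shared peaks were called. Lower in All gRNA were 63 (3.36%, 2.64 to 4.28), where 3.27% of all were called. Both shares lay near the background, and the background share was inside each interval. Scaling by the median ratio of all shared peaks, a shift of 0.108 on the log2 scale, turned the balance to 52 higher and 38 lower, with backgrounds of 3.29% and 2.05%. All 40 higher promoters and 38 of the 63 lower ones passed under that scaling. At 1.5-fold 57 were higher and 162 lower, with backgrounds of 3.3% and 7.17%. The higher promoters had median pileups of 15 and 27, in the order No gRNA and All gRNA, and the lower ones 42 and 14.

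Of the 10 largest differences in favour of All gRNA 8 fell at genes known by an identifier alone, and of the 10 largest the other way 5. Over all 1873 one-to-one promoters 46.3% had a symbol, against 32.5% (20.1 to 48) of the 40 higher and 54% (41.8 to 65.7) of the 63 lower ones, and 46.3% was inside both intervals. ENSG00000257746 on chromosome 12 (chr12:93090266-93090465) had 8 read windows in No gRNA against 31 for All gRNA, a ratio of 5.21 (2.34 to 13.1). LINC01886 had 7 and 20, a ratio of 3.84 (1.56 to 10.8), and ENSG00000286781 10 and 28, a ratio of 3.77 (1.78 to 8.69). ENSG00000286010, upstream of MYC, had 37 and 95, a ratio of 3.46 (2.34 to 5.2). ENSG00000289573 had 15 and 35, a ratio of 3.14, and ZBTB20-AS4 9 and 20, a ratio of 2.99. ENSG00000291246, ENSG00000290781, ENSG00000273464 and ENSG00000286594 had ratios of 3.7, 3.44, 2.92 and 2.87. Of these 10, the peaks of ENSG00000257746, LINC01886, ENSG00000291246, ENSG00000273464 and ENSG00000286010 had the least width the caller allowed in No gRNA, 200 bp.

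In the other direction ENSG00000289550 had 32 in No gRNA against 6 for All gRNA, a ratio of 0.252 (0.0862 to 0.612). LINC01823 had 61 and 12, a ratio of 0.265 (0.13 to 0.497), although its peak was wider in All gRNA, at 477 bp against 370 bp. ENSG00000260369, a CpG-dense promoter, had 92 and 22, a ratio of 0.322 (0.192 to 0.517). LINC01078, LINC02669, ENSG00000286313, VAC14-AS1, ENSG00000253628 and ENSG00000289432 had ratios from 0.293 to 0.327, and LINC01133 lay among them. All of these 10 passed 2-fold under scaling by the median ratio as well.

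The ZEB1 motif was read at the promoters that differed. CAGGTG lay within 100 bp of the summit at 12 of the 40 promoters higher in All gRNA (30%, 18.1 to 45.4), at 8 of the 63 lower ones (12.7%, 6.58 to 23.1) and at 13% of all 1873. Under scaling by the median ratio it lay at 14 of 52 (26.9%, 16.8 to 40.3) and at 7 of 38 (18.4%, 9.22 to 33.4). The intervals of the higher and the lower promoters overlapped under either scaling. Over all shared peaks it lay at 19.1% of the 1173 higher, 8.59% of the 1572 lower and 11.5% of all. The comparison E-box CAGCTG lay at 15% of the 40 higher, 14.3% of the 63 lower and 13% of all 1873. AP-1 sites lay at 25% of the higher and 28.6% of the lower promoters, against 25.1% of all 1873. Over all shared peaks they lay at 44.8% of the higher, 34% of the lower and 32.3% of all. CpG-dense windows made up 15% (7.06 to 29.1) of the higher and 27% (17.6 to 39) of the lower promoters, against 33.9% of all 1873, and 5.8%, 20.9% and 25.2% over all shared peaks.

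Not every peak at an isolated lncRNA start was shared. In No gRNA 2051 of 2560 such peaks (80.1%, 78.5 to 81.6) had a partner, against 88% of peaks at protein-coding starts and 71.3% of distal peaks. In All gRNA 2108 of 2507 (84.1%) had a partner, against 93.1% at protein-coding starts, 70.4% of distal peaks and 76.2% of all. The 509 found in No gRNA alone had a median pileup of 11 and a median width of 246 bp, and the 399 found in All gRNA alone 8 and 224 bp, so they were smaller than the shared ones. At the edges of the rule, LINC01159 with its summit 999 bp from the start was counted, with pileups of 40 and 32, and PTPRS-AS1 at 1001 bp was not, with 37 and 15. ENSG00000257732 at 5004 bp from the TXNRD1 start was counted, with 38 and 33, and PRRT3-AS1 at 4996 bp from the PRRT3 start was not, with 73 and 52.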

How the data were processed

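ATAC-seq peak lists of 2 libraries, 1 for No gRNA and 1 for All gRNA, were analysed. Per the study's methods and the submitters' processing notes, the authors trimmed reads with fastp, mapped them with Bowtie2 to hg38, removed mitochondrial reads, excluded regions and duplicates with SAMtools, called peaks per library with MACS2 (no model, extension of 150 bp, no control named) and used bedtools. Versions and any filter on mapping quality are not given in the sources used here. The deposited columns hold the fold enrichment ratio at the summit, its −log10 p-value and −log10 q-value, and a display score that was not used.

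The summit pileup and local background were solved from fold and p-value, and the solver was tested on simulated data. The steps of the recovered background match windows of 200 bp rather than the stated 150 bp, which gives 8799606 read ends in No gRNA and 6539145 in All gRNA, or 11732807 and 8718860 with windows of 150 bp. The ratio is 0.743 either way. Starts came from GENCODE release 44, pseudogene status from RefSeq, and protein-coding starts from transcripts of type protein_coding. Copies are exact 32-mer matches in hg38. Shares have Wilson 95% intervals, medians order-statistic intervals, and ratios exact conditional intervals, which cover counting error only. Analysis used Python 3.11.15, numpy 2.4.6, scipy 1.17.1 and pandas 2.3.3. Genes named are those of 4 lists, the 10 highest and 10 widest peaks, the 10 largest differences each way and the peaks at the edges of the rule. XIST was left out, and a sequence is not reported here. The members and lists were chosen with earlier results of these data known. Alternatives covered overlap, q-value, distances, starts, scaling, fold and window.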

Additional observations from a re-analysis of the deposited data

How the results depend on the processing

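No paired analysis was possible because the groups had a lone library each. Of 52 alternative values, 33 stayed within the interval of the reported value or within 1.5 times its count, and none changed sign. The balance of calls did turn, from 40 higher and 63 lower to 52 and 38 under scaling by the median ratio. The count of 2051 fell to 1334 at a −log10 q of at least 10 in both libraries, where the median widths were 532 bp and 476 bp, the calls 21 higher and 31 lower, and the open share of genes 9.84%. At a −log10 q of at least 5 the widths were 477 bp and 432 bp and the share 12.9%. With canonical lncRNA starts alone the No gRNA width was 466 bp. Summit limits of 500 bp and 2000 bp gave open shares of 11.7% and 17.6%. Scaling by the median ratio moved the median log2 ratio to -0.036, and a limit of 1.5-fold gave 162 lower. The AP-1 share was 11.6% within 50 bp and 31.1% within 150 bp. After seeing the data, 2 alternatives were added. Without repeated sequence 26.2% had an AP-1 site and 30.6% were CpG-dense, and starts of every transcript of protein-coding genes left 1936 promoters. With 1 library a group, variation between cultures was not measured, and pileups under about 20 give wide ratio intervals.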
